A study of Homo sapiens with 12 samples.

Results

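The 70 human genes described here encode the classical axon guidance cues and their receptors. They were chosen by symbol from a table of 59050 symbols, with earlier results of these data known. Every gene of the ephrins, EPH receptors, semaphorin classes 3 to 7, plexins, neuropilins, slits, robos, netrins and UNC5 receptors was taken, with DCC and NEO1. The set held 35 ligands and 35 receptors. Their reads were counted in HUES8, a human embryonic stem cell line of genotype WT, before (ESC) and after (NPC) conversion to neural progenitor cells. Conversion took 7 days of dual SMAD inhibition with SB431542 at 2.5 uM, which blocks the Nodal and activin receptors, and LDN193189 at 0.05 uM, which blocks BMP receptors. SB431542 was left out on the last 2 days. Each state was measured in 3 libraries of total RNA depleted of rRNA (RNA) and 3 libraries of RNA bound to ribosomes (RIBO), 12 libraries in all. Every library came from this single cell line, and the labels do not say whether the 3 libraries of a group came from separate cultures, so p-values measure only the spread between these libraries.

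Guidance cues steer the growth cones of axons, and before axons form they also sort cells and set tissue boundaries in the neural tube. Ephrins are bound to the membrane and signal through EPH receptor tyrosine kinases on neighbouring cells. Semaphorins signal through plexins, with neuropilins as co-receptors for most of the secreted class 3 members. Slits repel growth cones through robos, while netrins attract them through DCC and repel them through UNC5 receptors.

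The promoters of 5 members are shown because they belong to the ephrin and the EPH receptor with the largest RNA rises and to class 3 semaphorins of chromosome 7 that moved in opposite directions. Each line gives the 250 bases just before a RefSeq transcription start (GRCh38.p14), read 5′ to 3′ on the gene's own strand, which is the minus strand for all of them. Capitals mark matches, on either strand, to the GC box GGGCGG (as its reverse complement where the match is on the other strand) or to TAATCC, the core bound by OTX-type homeodomain proteins. The octamer ATTTGCAT, which POU factors bind, and the TATA box TATAAA were also searched, and these windows held neither.
EFNA5: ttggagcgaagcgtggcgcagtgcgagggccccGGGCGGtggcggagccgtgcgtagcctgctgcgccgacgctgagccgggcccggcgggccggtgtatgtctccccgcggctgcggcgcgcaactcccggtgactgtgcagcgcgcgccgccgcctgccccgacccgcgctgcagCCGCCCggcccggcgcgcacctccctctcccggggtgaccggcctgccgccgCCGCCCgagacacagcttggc
EPHA4: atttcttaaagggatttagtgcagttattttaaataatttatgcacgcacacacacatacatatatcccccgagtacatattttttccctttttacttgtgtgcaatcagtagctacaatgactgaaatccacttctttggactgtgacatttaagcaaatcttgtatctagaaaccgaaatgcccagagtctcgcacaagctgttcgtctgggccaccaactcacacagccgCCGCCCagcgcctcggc
SEMA3E: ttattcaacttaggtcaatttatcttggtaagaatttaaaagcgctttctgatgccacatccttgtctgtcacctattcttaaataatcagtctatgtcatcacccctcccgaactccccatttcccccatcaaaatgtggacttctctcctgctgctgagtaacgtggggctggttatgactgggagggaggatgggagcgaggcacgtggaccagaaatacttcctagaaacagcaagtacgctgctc
SEMA3C: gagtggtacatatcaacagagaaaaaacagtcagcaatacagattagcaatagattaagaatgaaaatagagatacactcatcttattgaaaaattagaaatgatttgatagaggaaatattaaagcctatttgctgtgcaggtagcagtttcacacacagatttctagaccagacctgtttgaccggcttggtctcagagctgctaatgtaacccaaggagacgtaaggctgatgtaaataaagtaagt
SEMA3D: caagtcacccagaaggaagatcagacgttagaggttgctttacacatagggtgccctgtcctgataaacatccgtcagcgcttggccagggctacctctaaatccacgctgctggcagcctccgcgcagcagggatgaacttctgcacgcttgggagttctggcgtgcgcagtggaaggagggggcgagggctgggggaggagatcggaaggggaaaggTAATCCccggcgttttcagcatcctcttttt
The windows lie at chr5:107670938-107671187 (EFNA5), chr2:221574203-221574452 (EPHA4), chr7:83649140-83649389 (SEMA3E), chr7:80922390-80922639 (SEMA3C) and chr7:85187057-85187306 (SEMA3D). The SEMA3D window lies inside that gene's RefSeq span, which runs on to base 85250243. The EFNA5 window held 41 CpG dinucleotides, was 79.6% G or C and had 3 GC boxes. The EPHA4 window held 9 CpG and 1 GC box, and the SEMA3D window held 13 CpG and 1 TAATCC. The SEMA3E window held 6 CpG and the SEMA3C window 2, with no match to any of the motifs. EPHA4, SEMA3E and SEMA3C have 2 RefSeq windows each, and only the most upstream is shown and described. Among all 35116 windows of this length in the table, 42.6% held the GC box, 5.62% TAATCC, 1.63% the octamer and 10.7% the TATA box. Of the 70 members, 60 had a window, and their 92 windows held a median of 17.5 CpG and 65.4% G or C, beside 11 CpG and 58% over all windows. A match describes the letters only.

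The RNA libraries held 19529738 to 35117370 counts each and the RIBO libraries 2422756 to 4451196. Levels are given in CPM, which are counts divided by the scaled total of their library. A count of 0 allows a level of up to 3 counts, or 0.0839 to 0.153 CPM in RNA and 0.684 to 1.3 CPM in RIBO, for counting error only. The summed RNA level of 4 stem cell markers (POU5F1, NANOG, TDGF1, DPPA4) was 2560 to 3050 CPM in ESC and 170 to 173 CPM in NPC. That of 4 progenitor markers (PAX6, SOX1, OTX2, LHX2) was 11.6 to 13.6 CPM in ESC and 177 to 185 CPM in NPC. The 7 neuron markers summed to 21.5 to 23.1 CPM in ESC and 10.3 to 12.3 CPM in NPC. Of these, TUBB3, ELAVL4, DCX and SYP fell, ELAVL3 rose (log2 2.24, adjusted p = 0.00373), STMN2 did not pass (log2 -0.09) and NEUROD1 was too low to test. The 5 neural crest markers summed to 8.43 to 17.9 CPM in ESC and 177 to 178 CPM in NPC, with none at 0 in all libraries. SOX10, TFAP2A, TFAP2B and PAX3 rose, while FOXD3, which made up most of the ESC sum, fell in RNA (log2 -1.26, adjusted p = 0.00765) and in RIBO (log2 -2.14, adjusted p = 3.61e-05). The 5 mesenchyme markers summed to 27.4 to 52.5 CPM in ESC and 74.6 to 87.7 CPM in NPC. Of these only PDGFRB rose in RNA (6.67 to 48.6 CPM), COL1A1 (34.6 and 31.4 CPM) and COL3A1 (0.751 and 0.483 CPM) did not pass, and TWIST1 and LUM were too low to test. The 5 endothelium markers summed to 520 to 730 CPM in ESC and 136 CPM in NPC. Nearly all of that sum was KDR, which fell (log2 -2.23), while PECAM1 (2.28), CDH5 (2.08), TEK (1.51) and CLDN5 (0.98) rose from means of at most 1.04 CPM to at most 2.96 CPM. The part of neural crest, mesenchyme and endothelial cells in the changes below was not tested. In these bulk samples fewer cells of a type and less RNA per cell cannot be told apart. In 2 libraries the members sat apart from the other replicates: in RNA_ESC replicate 3 they lay lower by a median log2 difference of -0.47 (all genes -0.01), and in RIBO_ESC replicate 2 higher by 0.53 (all genes 0.04). Both libraries also differed from their replicates across all genes tested, by the correlation of log2 CPM. RNA_ESC 3 had r of 0.98 and 0.976 with the others, which had 0.996 between them. For RIBO_ESC 2 these values were 0.927 and 0.94, beside 0.976.

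Guidance genes rose more often than they fell when stem cells became neural progenitors, in both assays. In RNA, 68 members passed the filter on low counts, and 37 of them rose and 16 fell past an adjusted p of 0.05 (edgeR). That is 54.4% higher and 23.5% lower, beside 26.4% and 26.2% of all genes tested, and 77.9% called in all, beside 52.6%. The median log2 fold change of NPC over ESC was 0.67 for the members and 0.03 for all genes. In RIBO, 34 of 57 members tested rose and 9 fell, which is 59.6% and 15.8% beside 31.6% and 30.3% of all genes, and 75.4% called in all beside 61.8%. Their median was 1.34, beside -0.01 for all genes. Counting only changes of at least 2-fold, 29 members rose and 10 fell in RNA (14.4% and 14.4% of all genes), and 30 rose and 7 fell in RIBO (24.6% and 21.4%). Without RNA_ESC replicate 3 the RNA counts were 41 higher and 21 lower of 68 (60.3% and 30.9%), beside 34.9% and 34.7% of all genes in that fit. Without RIBO_ESC replicate 2 the RIBO counts were 39 and 9 of 58 (67.2% and 15.5%), beside 34.8% and 33.3%. Each of these fits kept an ESC pair that agreed more closely (r of 0.996 in RNA and 0.976 in RIBO). Their adjusted p-values therefore measure a narrower spread, here and for single genes below, and are no firmer than those of the full fit. With the replicate number as a block, the RNA counts were 39 higher and 17 lower, beside 27.4% and 26.7% of all genes. The 3 NPC values lay all above or all below the 3 ESC values for 55 of 68 members in RNA, where 62.8% of all genes did so, and for 47 of 57 in RIBO, where 67.1% did. The ligands rose in 19 and fell in 5 of 34 tested in RNA, and the receptors rose in 18 and fell in 11 of 34. In RIBO the receptors rose in 21 and fell in 3 of 27, and the ligands rose in 13 and fell in 6 of 30. ROBO4, a robo of blood vessels, had 1 count in the 12 libraries together, and NTN3 was also too low to test, so both are absent from these counts. The plot of fold changes by family shows every member tested.

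**Figure D1:**
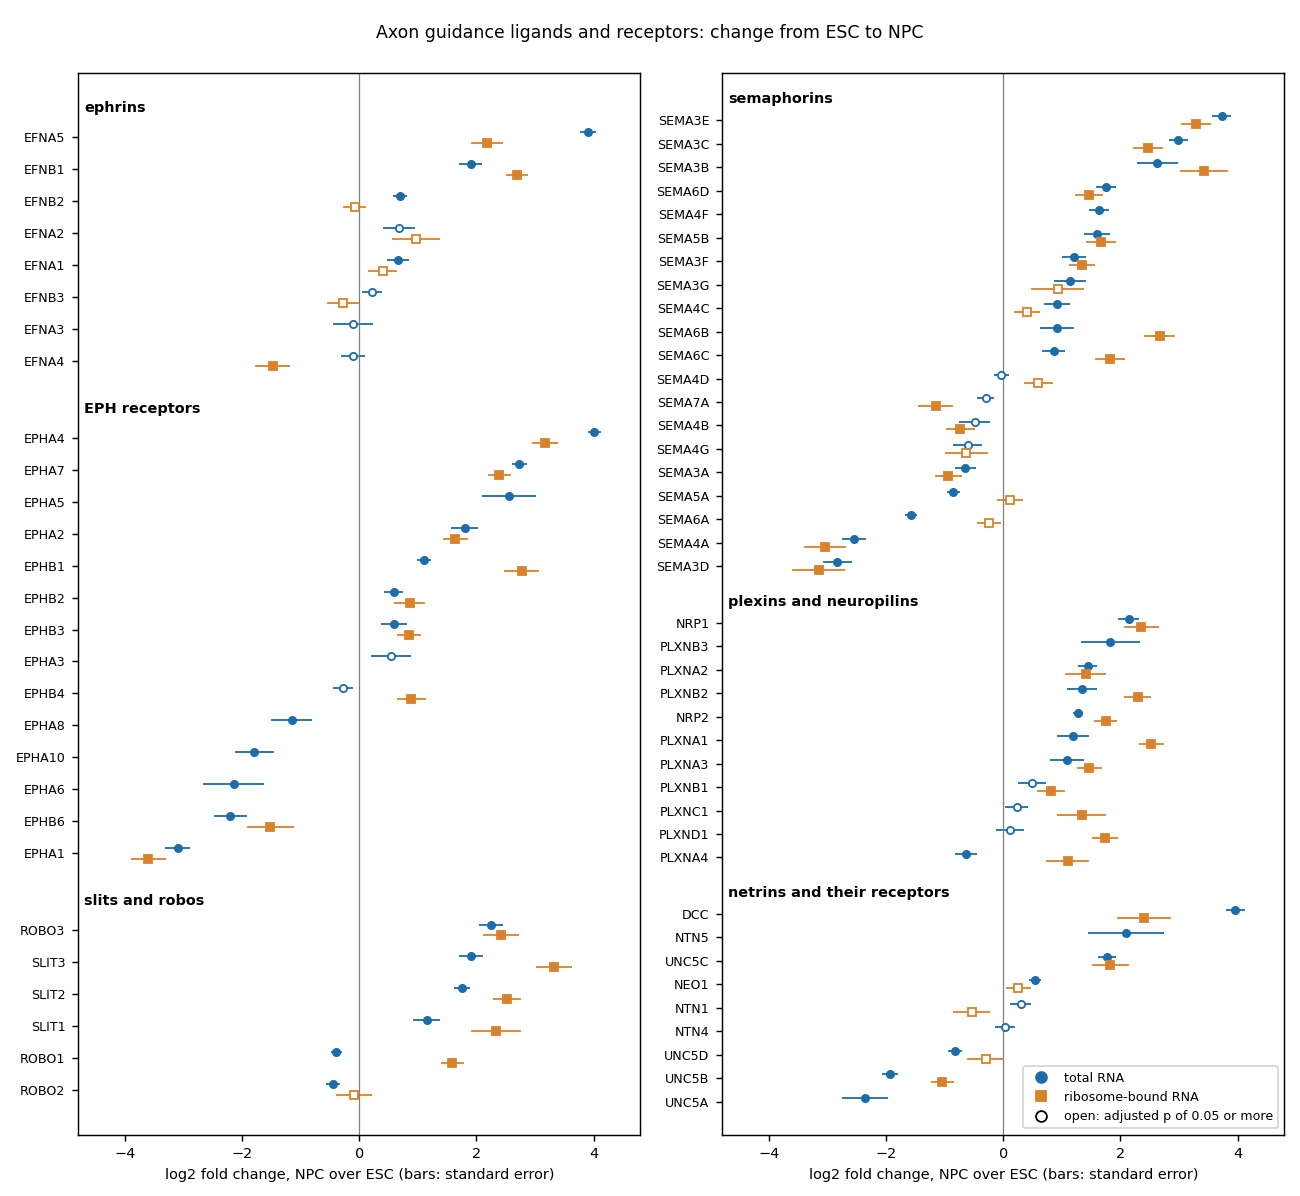
Log2 fold change of NPC over ESC (x axis) for the members of each family (y axis), in total RNA (circles) and ribosome-bound RNA (squares), with bars of 1 standard error and open symbols where the adjusted p was 0.05 or more. EPHA4, DCC and EFNA5 lie farthest to the right in RNA, EPHA1 and SEMA3D farthest to the left, and all 10 plexins and neuropilins tested in ribosome-bound RNA lie to the right of 0.

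Among the ephrins, the ligands of the EPH receptors, 4 of 8 rose in RNA and the other 4 were not called, while in RIBO 2 of 7 rose and 1 fell. That is 50.0% called in RNA and 42.9% in RIBO, below the 52.6% and 61.8% of all genes. EFNA5, a membrane-anchored ligand that patterns retinal axons, was at 7.77, 8.07 and 10.4 CPM in the ESC RNA libraries. In the NPC RNA libraries it was at 135, 130 and 129 CPM. The groups lay far apart, and EFNA5 rose 15-fold (log2 3.91 ± 0.14 SE, adjusted p = 6.77e-07). In RIBO it went from 7.54, 15.6 and 7.82 CPM to 41.6, 49.4 and 44.9 CPM, a smaller rise of 4.52-fold (log2 2.18 ± 0.28, adjusted p = 4.63e-05). The efficiency, meaning RIBO relative to RNA, fell by 1.77 ± 0.33 on the log2 scale for EFNA5 (interaction of assay and state, adjusted p = 5.89e-04).

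EFNB1, an ephrin that spans the membrane and is mutated in craniofrontonasal syndrome, showed the opposite order. Its RNA was at 54.7, 55.5 and 33.8 CPM in ESC and 182, 184 and 172 CPM in NPC (log2 1.90 ± 0.19, adjusted p = 9.25e-05). Its RIBO level was at 29.5, 30.8 and 34.3 CPM in ESC and 216, 195 and 200 CPM in NPC, with no overlap in either assay, and rose 6.44-fold (log2 2.69 ± 0.19, adjusted p = 8.25e-07). The efficiency of EFNB1 was higher in NPC by 0.73 ± 0.25 (adjusted p = 0.0278). That call was lost without RIBO_ESC 1, RIBO_NPC 1, RNA_ESC 1 or 2 or any 1 RNA_NPC library (adjusted p from 0.0537 to 0.0762). EFNB2, an ephrin of arteries and of the hindbrain, rose in RNA from 68.0, 67.9 and 87.5 CPM to 118, 121 and 120 CPM (log2 0.69 ± 0.12, adjusted p = 0.00214). Its RIBO libraries overlapped, at 25.8, 25.6 and 30.5 CPM in ESC and 25.5, 25.8 and 26.2 CPM in NPC (log2 -0.08 ± 0.20, adjusted p = 0.739). Its efficiency was lower in NPC (log2 -0.81 ± 0.24, adjusted p = 0.0122). EFNA4, another anchored ephrin, had lower efficiency with a fall in RIBO. Its RNA groups overlapped, at 19.2, 21.2 and 12.2 CPM in ESC and 18.1, 15.8 and 14.9 CPM in NPC (log2 -0.11 ± 0.21, adjusted p = 0.68). Its RIBO level fell from 35.2, 62.0 and 28.9 CPM to 14.5, 12.4 and 17.5 CPM (log2 -1.48 ± 0.30, adjusted p = 0.00109), and its efficiency was lower by log2 -1.43 ± 0.38 (adjusted p = 0.0075). Without RNA_ESC replicate 3, the low ESC library, EFNA4 also passed the threshold in RNA (log2 -0.32, adjusted p = 0.00387). EFNA1 rose in RNA by 0.66 ± 0.19, a call lost without RNA_ESC 2 or RNA_NPC 2 (adjusted p of 0.0526 and 0.0887). EFNA2 did not pass in RNA (log2 0.68, adjusted p = 0.066) but did with the replicate block (0.74, adjusted p = 0.0111), with DESeq2 (adjusted p = 0.033), with no filter (adjusted p = 0.0143) and without RNA_ESC 3 (0.41, adjusted p = 0.00146). In RIBO EFNA2 (log2 0.97, adjusted p = 0.0557) passed with limma-voom (1.21, adjusted p = 0.0166), with no filter (adjusted p = 0.00789), in a single fit over 12 libraries (adjusted p = 0.0438) and without RIBO_ESC 2 (1.66, adjusted p = 2.11e-05). EFNA3 and EFNB3 did not pass the threshold where they were tested.

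The EPH receptors split, with 7 of 14 rising and 5 falling in RNA, and 7 of 9 rising and 2 falling in RIBO. That is 85.7% called in RNA and 100% in RIBO, beside 52.6% and 61.8% of all genes. EPHA4, a receptor that binds ephrins of both the A and the B type, rose most. Its RNA level was 34.6, 31.7 and 37.5 CPM in ESC and 548, 553 and 578 CPM in NPC, a 16.2-fold rise (log2 4.01 ± 0.11, adjusted p = 1.94e-07). In RIBO it was 81.7, 88.9 and 74.5 CPM in ESC and 833, 658 and 719 CPM in NPC, 9.03-fold higher (log2 3.17 ± 0.22, adjusted p = 7.02e-07). Every NPC library was above every ESC library, and the efficiency was lower in NPC (log2 -0.89 ± 0.23, adjusted p = 0.00637). EPHA7 rose in RNA (log2 2.73 ± 0.13) and RIBO (2.39 ± 0.20), and EPHA2 by 1.80 ± 0.23 and 1.64 ± 0.21. EPHA5 rose in RNA by 2.56 ± 0.46 from a very low level, with 7 counts in the ESC libraries together and 64 in NPC. EPHB2 and EPHB3 rose by less than 1 log2 unit in each assay. Of these, the RNA call of EPHB2 was lost without RNA_NPC 2 (adjusted p = 0.0546) and that of EPHB3 without RNA_ESC 2 or any 1 RNA_NPC library (adjusted p from 0.0579 to 0.144). The efficiency of EPHA7, at log2 -0.39, passed the threshold without RNA_ESC 3 (-0.53, adjusted p = 0.0331).

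EPHA1, the founding member of the receptor family, fell most. In ESC it was at 391, 393 and 234 CPM in RNA and 450, 938 and 536 CPM in RIBO. In NPC it was at 42.5, 38.8 and 37.5 CPM in RNA (8.58-fold lower, log2 -3.10 ± 0.21, adjusted p = 1.20e-05) and 56.8, 47.2 and 54.9 CPM in RIBO (12.1-fold lower, log2 -3.60 ± 0.30, adjusted p = 2.11e-06). The groups did not overlap in either assay. EPHA1-AS1, the antisense gene at this locus, had 164 RNA counts in ESC beside 22074 of EPHA1. EPHB6, whose kinase domain is inactive, fell in both assays (log2 -2.20 ± 0.28 and -1.52 ± 0.40). EPHA6, EPHA10 and EPHA8 fell in RNA from levels of at most 2.95 CPM and were not tested in RIBO. The value of EPHA6 moved from -2.14 to -3.12 without RNA_NPC 2. The call of EPHA8 (log2 -1.15) was lost without RNA_ESC 1 or 2 or RNA_NPC 2 or 3 (adjusted p from 0.0523 to 0.0848). EPHA3 did not pass in RNA (log2 0.54, adjusted p = 0.211) except without RNA_ESC 3 (0.82, adjusted p = 0.0389).

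A pair of B-type receptors changed in efficiency. With EPHA4, 33.3% of the 9 EPH receptors tested were called in efficiency, beside 41.9% of all genes. EPHB1, which steers retinal axons at the optic chiasm, was at 12.7, 11.4 and 12.6 CPM in ESC RNA and 26.2, 26.5 and 26.6 CPM in NPC (log2 1.11 ± 0.12, adjusted p = 1.41e-04). In RIBO it went from 5.03, 3.47 and 2.43 CPM to 24.5, 22.7 and 27.1 CPM, 6.82-fold higher (log2 2.77 ± 0.30, adjusted p = 1.36e-05). No library of one state reached the other, and the efficiency was higher in NPC by 1.62 ± 0.32 (adjusted p = 8.65e-04). EPHB4, the receptor of EFNB2 on veins, had overlapping RNA values of 278, 281 and 180 CPM in ESC and 218, 211 and 184 CPM in NPC (log2 -0.27 ± 0.17, adjusted p = 0.23). Its RIBO values did not overlap, at 66.9, 99.7 and 59.9 CPM and 147, 103 and 169 CPM (log2 0.89 ± 0.25, adjusted p = 0.0088), and its efficiency was higher by 1.10 ± 0.32 (adjusted p = 0.0122). EPHB4 changed its calls with RNA_ESC 3 left out, where it fell in RNA (log2 -0.45, adjusted p = 1.69e-08), and with RIBO_ESC 3 left out, where the RIBO rise was not called (0.73, adjusted p = 0.0513).

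**Figure D2:**
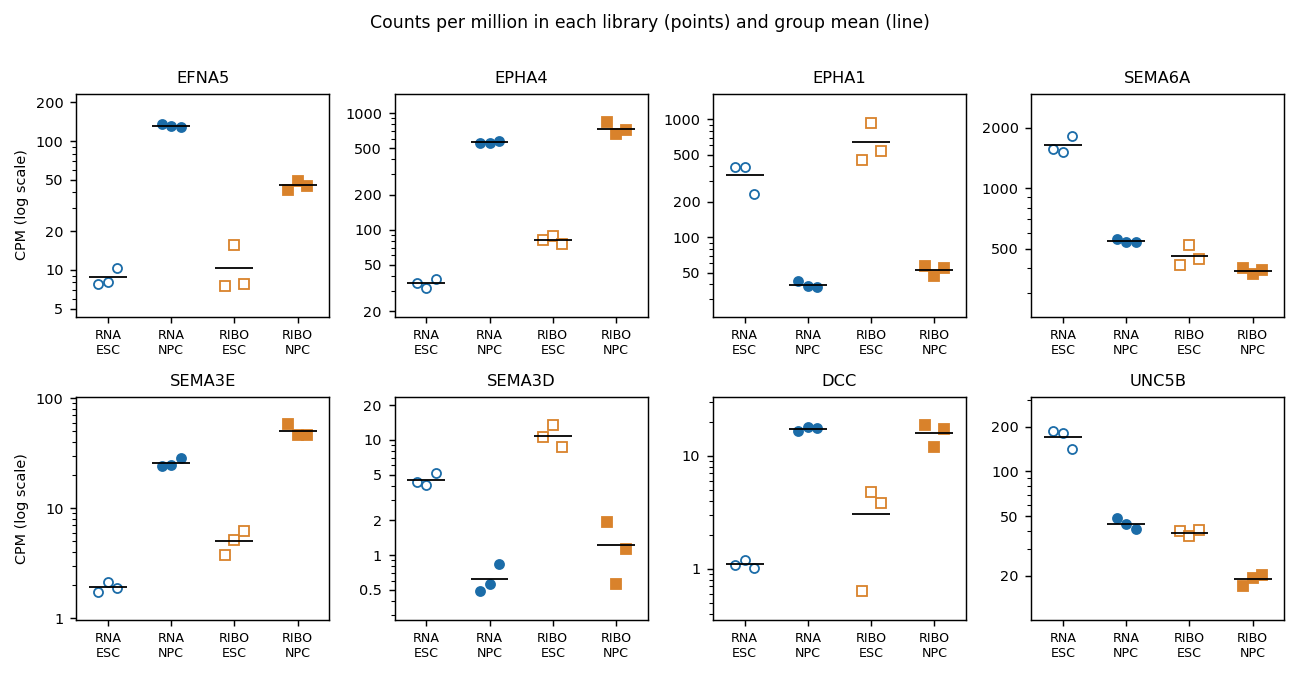
CPM in each library (y axis, log scale, one panel per gene) for the RNA and ribosome-bound (RIBO) libraries of ESC (open) and NPC (filled), with lines at the group means. EFNA5, EPHA4, SEMA3E and DCC are higher in all NPC libraries of both assays, EPHA1, SEMA3D and UNC5B are lower, and the RIBO levels of SEMA6A lie close together in contrast to its RNA levels.

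Semaphorins were the largest ligand family, with 11 of 20 rising and 5 falling in RNA, and 8 of 19 rising and 5 falling in RIBO. That is 80.0% called in RNA and 68.4% in RIBO, beside 52.6% and 61.8% of all genes. Secreted class 3 members gave the extremes in both directions. SEMA3E, which can signal through PLXND1 without a neuropilin, was at 1.74, 2.16 and 1.89 CPM in ESC RNA and 24.4, 24.5 and 28.5 CPM in NPC, 13.3-fold higher (log2 3.73 ± 0.16, adjusted p = 1.47e-06). In RIBO it rose from 3.77, 5.2 and 6.2 CPM to 57.8, 46.6 and 46.3 CPM (log2 3.29 ± 0.26, adjusted p = 1.40e-06). SEMA3D moved the other way, from 4.35, 4.07 and 5.16 CPM in ESC RNA to 0.488, 0.559 and 0.832 CPM in NPC (log2 -2.83 ± 0.24, adjusted p = 3.80e-05). Its RIBO level fell from 10.7, 13.4 and 8.63 CPM to 1.94, 0.562 and 1.14 CPM (log2 -3.15 ± 0.45, adjusted p = 9.33e-05), where the NPC values rest on 6, 2 and 5 counts. Neither gene had overlapping groups. SEMA3B rose from 1.33, 1.76 and 0.46 CPM to 7.85, 8.0 and 6.63 CPM in RNA (log2 2.63 ± 0.35, adjusted p = 4.54e-04). It had the largest RIBO rise of the family, from 2.20, 1.73 and 0.54 CPM to 14.5, 16.8 and 15.5 CPM (log2 3.42 ± 0.41, adjusted p = 2.71e-05). The ESC values of SEMA3B in RIBO rest on 7, 4 and 2 counts. SEMA3C rose in RNA (log2 2.99 ± 0.16) and RIBO (2.47 ± 0.25), and SEMA3F in RNA (1.21 ± 0.21) and RIBO (1.34 ± 0.22). SEMA3G rose in RNA (1.14 ± 0.28) and did not pass in RIBO (0.93 ± 0.45, adjusted p = 0.0899). SEMA3A, the classical collapsing factor of growth cones, was lower in NPC in RNA (log2 -0.65 ± 0.18, adjusted p = 0.0174) and in RIBO (-0.94 ± 0.23, adjusted p = 0.00434). The RNA call of SEMA3A was lost without any 1 RNA_NPC library (adjusted p from 0.0581 to 0.0631).

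SEMA3E, SEMA3A and SEMA3D are neighbours on chromosome 7, with no protein-coding gene between them in RefSeq. The gap between the spans of SEMA3E and SEMA3A is 306637 bases, and that between SEMA3A and SEMA3D is 502827 bases. The outer genes of this row changed 13.3-fold upward and 7.10-fold downward in RNA. SEMA3C, which rose, lies on the same arm beyond other coding genes.

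Of the semaphorins that span the membrane, 4 had a higher efficiency in NPC. These were the only rises among all 19 semaphorins tested, or 21.1%, beside 22.9% of all genes. SEMA6A, which repels through PLXNA2 and PLXNA4, was at 1560, 1520 and 1820 CPM in ESC RNA and 557, 543 and 543 CPM in NPC (2.99-fold lower, log2 -1.58 ± 0.10, adjusted p = 6.62e-06). Its RIBO libraries were at 414, 521 and 447 CPM in ESC and 403, 374 and 391 CPM in NPC, close but not overlapping, and did not pass the test (log2 -0.24 ± 0.20, adjusted p = 0.31). The efficiency of SEMA6A was higher in NPC by 1.29 ± 0.23 (adjusted p = 4.95e-04). SEMA5A, a semaphorin with thrombospondin repeats, fell in RNA from 63.5, 61.7 and 70.9 CPM to 36.6, 35.9 and 36.1 CPM (log2 -0.85 ± 0.11, adjusted p = 3.14e-04). Its RIBO groups overlapped at 19.5, 27.3 and 20.2 CPM and 23.9, 25.6 and 22.6 CPM, and its efficiency was higher by 0.92 ± 0.25 (adjusted p = 0.00763). SEMA6B, of the same class as SEMA6A, rose in RNA from 64.6, 69.0 and 29.0 CPM to 110, 105 and 90.7 CPM (log2 0.91 ± 0.29, adjusted p = 0.0296), a call lost without any 1 RNA_NPC library (adjusted p from 0.0506 to 0.085). In RIBO SEMA6B rose 6.36-fold, from 13.2, 22.1 and 10.5 CPM to 97.5, 96.0 and 92.1 CPM (adjusted p = 6.30e-06), and its efficiency was higher by 1.71 ± 0.40 (adjusted p = 0.00297). SEMA6C rose from 34.9, 35.5 and 21.3 CPM to 55.0, 57.5 and 53.3 CPM in RNA (log2 0.86 ± 0.19) and from 8.17, 10.4 and 12.9 CPM to 45.8, 37.3 and 29.2 CPM in RIBO (1.82 ± 0.26). The efficiency of SEMA6C was higher by 0.90 ± 0.33 (adjusted p = 0.0358), which was lost in 8 of 12 fits that left out 1 library and held without RIBO_ESC 2, RIBO_ESC 3, RIBO_NPC 3 or RNA_ESC 3 (adjusted p from 0.0589 to 0.0988 where lost).

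SEMA7A, which is anchored by a lipid and binds PLXNC1, had overlapping RNA groups of 40.4, 42.8 and 32.8 CPM in ESC and 31.9, 33.6 and 29.0 CPM in NPC. In RIBO it fell from 47.8, 111 and 53.1 CPM to 31.6, 30.3 and 33.0 CPM (log2 -1.15 ± 0.30, adjusted p = 0.00555). Its efficiency was lower (log2 -0.91 ± 0.35, adjusted p = 0.0498). That call held without RIBO_ESC 1 or RIBO_ESC 3 and was lost in the other 10 fits (adjusted p from 0.0548 to 0.11). Without RIBO_ESC 2, which read 111 CPM, the efficiency value of SEMA7A was only -0.43 (adjusted p = 0.11). SEMA4A, a class 4 member of immune cells and retina, fell in both assays (log2 -2.55 ± 0.20 and -3.04 ± 0.36). SEMA6D (1.76 ± 0.17 and 1.46 ± 0.24) and SEMA5B (1.6 ± 0.22 and 1.67 ± 0.26) rose in both. SEMA4F rose in RNA (1.64 ± 0.17) and was too low to test in RIBO, and SEMA4C rose in RNA (0.92 ± 0.22). SEMA4B fell in RIBO (log2 -0.73), a call lost without RIBO_NPC 1 or 2 (adjusted p of 0.0723 and 0.106). In the full RNA fit SEMA4B (log2 -0.49, adjusted p = 0.144), SEMA4G (-0.61, adjusted p = 0.0677) and SEMA7A (-0.3, adjusted p = 0.107) did not pass. Without RNA_ESC 3 they were called lower (log2 -0.77, -0.86 and -0.40, adjusted p of 2.47e-14, 2.12e-11 and 1.61e-05). With all libraries kept, SEMA4G was also lower with the replicate block (-0.55, adjusted p = 0.0443), DESeq2 (adjusted p = 0.0257), a minimum mean of 10 counts (adjusted p = 0.0486) and no filter (adjusted p = 0.0203), and SEMA4B with no filter (adjusted p = 0.0439). Without RIBO_ESC 2, SEMA4C (0.65, adjusted p = 1.39e-04) and SEMA4D (0.88, adjusted p = 1.08e-05) were higher in RIBO and SEMA4D in efficiency (0.87, adjusted p = 0.00582). SEMA4D was also higher in RIBO without RIBO_NPC 2 (0.77, adjusted p = 0.0412) and, with all libraries kept, with limma-voom, no filter and a single fit over 12 libraries (adjusted p of 0.0491, 0.0401 and 0.0254).

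The plexins and neuropilins, which receive semaphorins, rose in most cases. In RNA 7 of 11 rose and 1 fell, and in RIBO all 10 tested rose, by 0.81 to 2.53 log2 units. That is 72.7% called in RNA and 100% in RIBO, beside 52.6% and 61.8% of all genes. NRP1, the co-receptor for SEMA3A, went from 3.89, 3.67 and 5.42 CPM to 19.5, 18.7 and 18.9 CPM in RNA (4.41-fold, log2 2.14 ± 0.18, adjusted p = 3.70e-05). In RIBO it went from 3.46, 4.77 and 2.7 CPM to 19.7, 16.6 and 18.5 CPM (log2 2.36 ± 0.30, adjusted p = 4.39e-05). Both rises were far above the spread of the libraries. NRP2 rose less (1.27 ± 0.08 in RNA and 1.75 ± 0.20 in RIBO), and its efficiency passed the threshold only without RIBO_ESC 2 (0.49, adjusted p = 0.0342).

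PLXNA1, a signalling partner of the neuropilins, was at 188, 208 and 93.4 CPM in ESC RNA and 407, 370 and 336 CPM in NPC (log2 1.19 ± 0.27, adjusted p = 0.00647). Its RIBO level was at 72.0, 104 and 74.2 CPM in ESC and 462, 474 and 500 CPM in NPC, 5.76-fold higher (log2 2.53 ± 0.22, adjusted p = 2.80e-06). The groups were well apart in both, and the efficiency was higher by 1.28 ± 0.33 (adjusted p = 0.00621). PLXND1, the receptor of SEMA3E, had overlapping RNA groups of 129, 135 and 67.0 CPM in ESC and 127, 123 and 108 CPM in NPC (log2 0.11 ± 0.24, adjusted p = 0.718). In RIBO it rose 3.35-fold, from 40.8, 57.2 and 34.0 CPM to 144, 137 and 158 CPM (log2 1.74 ± 0.22, adjusted p = 4.42e-05), with an efficiency higher by 1.57 ± 0.33 (adjusted p = 0.00145). PLXNB2, a receptor of class 4 semaphorins needed for neural tube closure in mice, rose from 164, 186 and 85.0 CPM to 381, 382 and 340 CPM in RNA (log2 1.34 ± 0.26, adjusted p = 0.00289). In RIBO it rose from 154, 220 and 150 CPM to 915, 795 and 865 CPM (log2 2.30 ± 0.23, adjusted p = 8.01e-06). The efficiency of PLXNB2 was higher by 0.89 ± 0.33 (adjusted p = 0.0392), which held without RIBO_ESC 2 or RNA_ESC 3 and was lost in the other 10 fits that left out 1 library (adjusted p from 0.0514 to 0.11).

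PLXNA4, the receptor that SEMA6A and the neuropilins share, went in opposite directions in the assays. Its RNA was at 17.3, 17.3 and 11.3 CPM in ESC and 10.4, 9.51 and 9.93 CPM in NPC (log2 -0.63 ± 0.19, adjusted p = 0.0222). Its RIBO level was at 5.34, 3.90 and 4.05 CPM in ESC and 6.45, 8.42 and 13.4 CPM in NPC (1.10 ± 0.37, adjusted p = 0.0218). No groups overlapped, and the efficiency was higher by 1.68 ± 0.39 (adjusted p = 0.00313). The RNA call of PLXNA4 held only without RNA_ESC 3 among the fits that left out 1 library (adjusted p from 0.0501 to 0.0869 in the other 5), and the RIBO call was lost without RIBO_ESC 3 or RIBO_NPC 3 (adjusted p of 0.0733 and 0.137).

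The remaining plexins differed in how firm their calls were. PLXNA2 (1.44 ± 0.16 and 1.41 ± 0.35) and PLXNA3 (1.09 ± 0.29 and 1.47 ± 0.21) rose in both assays, and the efficiency of PLXNA3 passed only without RNA_ESC 3 (0.61, adjusted p = 0.0262). PLXNB1 rose in RIBO (0.81 ± 0.24), a call lost without RIBO_ESC 3 (0.68, adjusted p = 0.0649). In RNA PLXNB1 was at log2 0.49 (adjusted p = 0.115), and passed with the replicate block (0.55, adjusted p = 0.025), with no filter (adjusted p = 0.0203) and without RNA_ESC 3 (0.24, adjusted p = 0.00125). PLXNC1 rose in RIBO (1.34 ± 0.42), a call lost without RIBO_NPC 1 or 3 (adjusted p of 0.0587 and 0.0531). In RNA PLXNC1 passed only without RNA_ESC 3 (0.47, adjusted p = 0.00409), and in efficiency only without RIBO_ESC 2 (1.43, adjusted p = 0.0343) or RIBO_NPC 2 (1.31, adjusted p = 0.0467). PLXNB3 rose in RNA from at most 0.479 CPM to at most 1.13 CPM (log2 1.83 ± 0.51). That call was lost without RNA_ESC 1, RNA_NPC 1 or RNA_NPC 2 (adjusted p from 0.0526 to 0.0566), and the value was 2.63 without RNA_ESC 2.

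**Figure D3:**
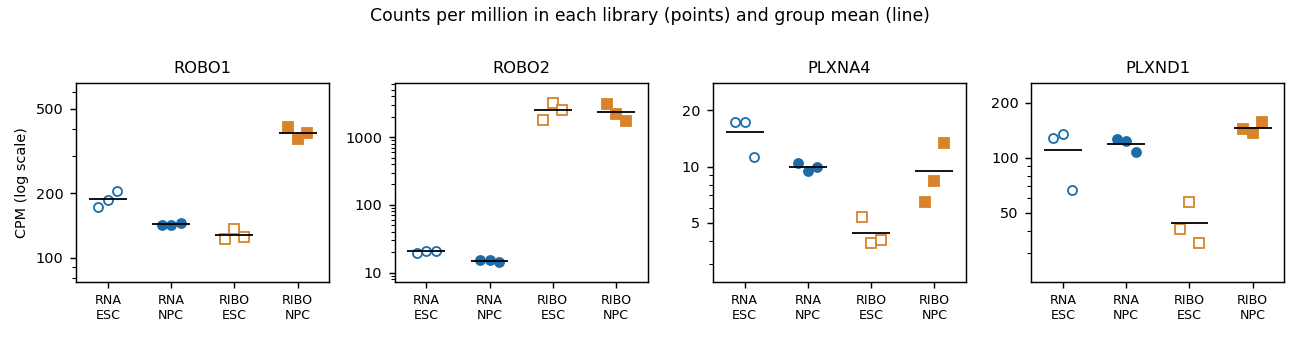
CPM in each library (y axis, log scale, one panel per gene) for RNA and ribosome-bound (RIBO) libraries of ESC (open) and NPC (filled), with lines at the group means. ROBO1 and PLXNA4 are lower in NPC in RNA and higher in RIBO, PLXND1 overlaps in RNA and is higher in RIBO, and ROBO2 lies near 20 CPM or below in RNA and above 1700 CPM in RIBO in both states.

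The slits rose and their robo receptors diverged. SLIT2, a secreted repellent of the midline, went from 27.3, 24.3 and 33.4 CPM to 96.2, 93.4 and 97 CPM in RNA (3.37-fold, log2 1.75 ± 0.14, adjusted p = 2.65e-05). In RIBO it went from 10.4, 8.24 and 13.8 CPM to 62.9, 56.7 and 70.0 CPM (5.75-fold, log2 2.52 ± 0.24, adjusted p = 4.55e-06). All NPC libraries were above all ESC libraries, and the efficiency was higher by 0.73 ± 0.28 (adjusted p = 0.0462). That last call held without RIBO_ESC 3 or RNA_ESC 2 and was lost in the other 10 fits (adjusted p from 0.0559 to 0.104). SLIT3 rose from 7.05, 7.07 and 4.19 CPM to 23.4, 23.4 and 22.0 CPM in RNA (log2 1.91 ± 0.21, adjusted p = 1.55e-04). In RIBO it rose from 5.34, 9.11 and 3.51 CPM to 67.4, 50.3 and 54.9 CPM (log2 3.32 ± 0.31, adjusted p = 4.17e-06), with an efficiency higher by 1.37 ± 0.38 (adjusted p = 0.00918). SLIT1 rose too (1.15 ± 0.23 in RNA and 2.33 ± 0.43 in RIBO, or 2.93 without RIBO_ESC 2). Its efficiency, at 1.16 (adjusted p = 0.0669), passed without RIBO_ESC 2 (1.77, adjusted p = 0.0105) or RNA_ESC 3 (1.39, adjusted p = 0.00953).

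ROBO1, a slit receptor, was lower in NPC by RNA and higher by ribosome-bound RNA. Its RNA libraries were at 173, 187 and 206 CPM in ESC and 143, 142 and 146 CPM in NPC (log2 -0.39 ± 0.10, adjusted p = 0.0101). Its RIBO libraries were at 123, 137 and 125 CPM in ESC and 412, 361 and 384 CPM in NPC (3.01-fold, log2 1.59 ± 0.19, adjusted p = 2.85e-05). The groups were separate in each assay, and the efficiency was higher by 1.93 ± 0.21 (adjusted p = 7.87e-06), the largest rise in efficiency among the members. The small RNA fall was not called without RNA_NPC 1 or RNA_NPC 2 (adjusted p of 0.0505 and 0.0579). ROBO3, which lets commissural axons cross the midline, rose in RNA from 7.00, 9.14 and 5.42 CPM to 35.6, 35.7 and 31.9 CPM (log2 2.25 ± 0.20, adjusted p = 4.78e-05). In RIBO it rose from 5.03, 4.77 and 4.59 CPM to 21.3, 34.5 and 21.4 CPM (2.42 ± 0.30, adjusted p = 3.33e-05).

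ROBO2, the neighbour of ROBO1 on chromosome 3 with no coding gene between them, had the highest RIBO level relative to its RNA among the members. Its RNA was at 19.7, 21.1 and 20.7 CPM in ESC and 15.4, 15.2 and 14.4 CPM in NPC (log2 -0.45 ± 0.12, adjusted p = 0.0126), a fall not called without any 1 RNA_NPC library (adjusted p from 0.0521 to 0.0724). Its RIBO libraries were at 1780, 3170 and 2550 CPM in ESC and 3140, 2180 and 1730 CPM in NPC, with overlapping groups (log2 -0.09 ± 0.30, adjusted p = 0.811). The level of the ratio, log2 of mean RIBO over mean RNA CPM with 0.5 added to each, was 6.89 in ESC and 7.24 in NPC. That placed ROBO2 at rank 17 and 22 from the top among 11866 genes, whose medians were -0.37 and -0.23. Counts per gene do not tell where in the gene the reads lie, and the cause was not tested.

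Of the netrins and their receptors, 4 of 9 rose and 3 fell in RNA, and 2 of 6 rose and 1 fell in RIBO. That is 77.8% called in RNA, beside 52.6% of all genes, and 50.0% in RIBO, below the 61.8% of all genes. DCC, the attractive netrin receptor, was at 1.07, 1.2 and 1.02 CPM in ESC RNA and 16.4, 17.9 and 17.4 CPM in NPC, 15.6-fold higher (log2 3.96 ± 0.16, adjusted p = 1.06e-06). In RIBO it went from 0.628, 4.77 and 3.78 CPM to 18.7, 11.8 and 17.1 CPM, 5.30-fold higher (log2 2.40 ± 0.46, adjusted p = 7.72e-04). The value of 0.628 CPM, in RIBO_ESC 1, lies below the level of 3 counts in that library (0.943 CPM). All NPC libraries were higher, and the efficiency was lower in NPC (log2 -1.59 ± 0.52, adjusted p = 0.0235). The efficiency call of DCC was lost without RIBO_ESC 2 (-1.22, adjusted p = 0.0905) or RIBO_ESC 3 (-1.32, adjusted p = 0.118). The UNC5 receptors, which mediate repulsion, went both ways. UNC5B fell from 188, 180 and 141 CPM to 48.5, 44.1 and 40.9 CPM in RNA (3.81-fold, log2 -1.93 ± 0.14, adjusted p = 1.67e-05). In RIBO it fell from 39.6, 36.9 and 40.2 CPM to 17.1, 19.4 and 20.3 CPM (2.05-fold, log2 -1.04 ± 0.20, adjusted p = 7.57e-04), and its efficiency was higher by 0.84 ± 0.22 (adjusted p = 0.00757). UNC5A fell in RNA from 10.6, 11.5 and 3.83 CPM to 1.88, 1.79 and 1.40 CPM (log2 -2.36 ± 0.40, adjusted p = 0.00153), without overlap, and was too low to test in RIBO. UNC5C rose by like amounts in RNA (1.77 ± 0.16) and RIBO (1.83 ± 0.31). UNC5D was lower in RNA (log2 -0.83 ± 0.12), and its efficiency passed only without RIBO_ESC 2 (0.98, adjusted p = 0.00663). NEO1, a relative of DCC that also binds RGM proteins, rose in RNA (0.54 ± 0.10) and passed in RIBO only without RIBO_ESC 2 (0.37, adjusted p = 0.0283).

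Of the netrins themselves, NTN1 passed the threshold in neither assay (log2 0.30 ± 0.18 in RNA and -0.54 ± 0.31 in RIBO). Without RIBO_ESC 3, NTN1 was lower in RIBO (-0.83, adjusted p = 0.0305) and in efficiency (-1.19, adjusted p = 0.0143), and DESeq2 called its efficiency lower with all libraries kept (-0.98, adjusted p = 0.0467). NTN4 was at 1.58 to 1.78 CPM in all RNA libraries. NTN5 rose in RNA within values of at most 0.526 CPM (log2 2.09 ± 0.65). The NTN5 call was lost without RNA_ESC 2 or any 1 RNA_NPC library (adjusted p from 0.0574 to 0.0926), and the value was 3.28 without RNA_ESC 1.

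The balance between total and ribosome-bound RNA changed for some members of every family. Of 57 members tested, the efficiency was higher in NPC for 15 and lower for 6, which is 36.8% called, below the 41.9% of all genes tested. By direction this was 26.3% higher and 10.5% lower, beside 22.9% and 19.0% of all genes, and the medians were 0.19 and -0.05. At 2-fold or more, 9 were higher and 3 lower (19.1% and 13.3% of all genes). The receptors were higher in 8 and lower in 2 of 27, and the ligands higher in 7 and lower in 4 of 30. Without RIBO_ESC 2, 19 members were higher and 4 lower of 58 (32.8% and 6.9%), beside 24.1% and 19.9% of all genes in that fit. Without RNA_ESC 3, 16 were higher and 6 lower of 57 (28.1% and 10.5%), beside 25.8% and 23.9%. The 15 with higher efficiency were EFNB1, EPHB1, EPHB4, SEMA5A, SEMA6A, SEMA6B, SEMA6C, PLXNA1, PLXNA4, PLXNB2, PLXND1, ROBO1, SLIT2, SLIT3 and UNC5B. The 6 with lower efficiency were EFNA4, EFNA5, EFNB2, EPHA4, SEMA7A and DCC. EFNA5, EPHA4 and DCC, which had the largest RNA rises of all members, are among the latter, while their RIBO levels also rose. By the combination of calls, 17 members rose in both assays with no call in efficiency, 8 rose in both with higher efficiency, and 5 fell in both with no call in efficiency. SEMA4D, SEMA4G, EFNB3, NTN1 and EFNA2 were not called in any of the 3 comparisons.

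**Figure D4:**
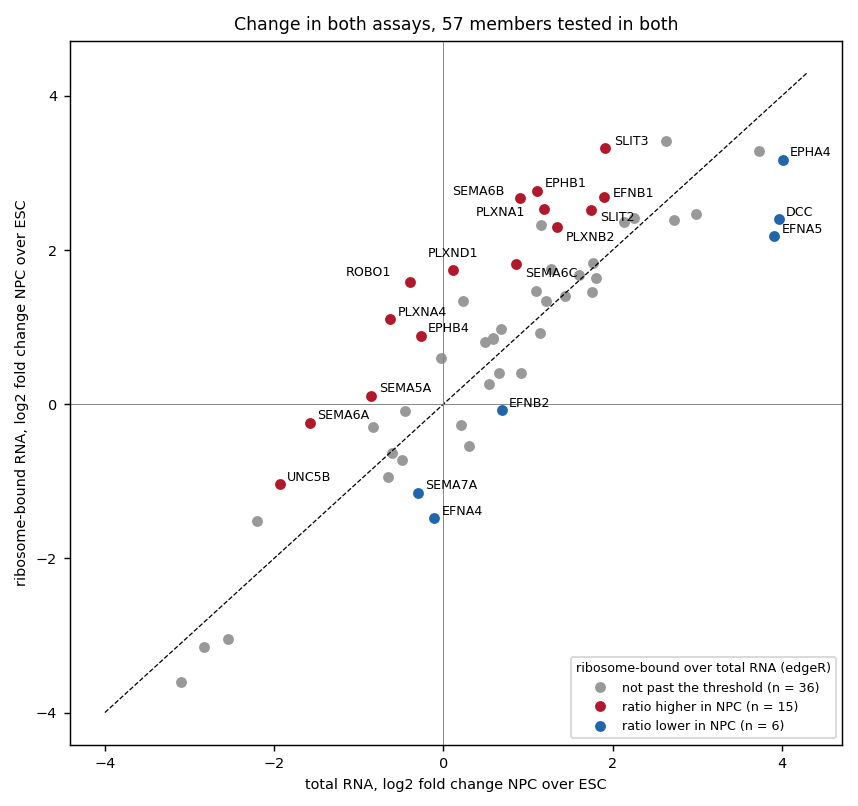
Log2 fold change of NPC over ESC in total RNA (x axis) against ribosome-bound RNA (y axis) for the 57 members tested in both (points), with the line of equal change. The 15 named red points, with a higher ratio in NPC, lie above the line, and the 6 named blue points, with a lower ratio, lie below it.

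Within each state, the ratio levels of the members were close to those of other genes. Their median was -0.12 in ESC and -0.06 in NPC, beside -0.37 and -0.23 for all 11866 genes. After ROBO2, the highest was SEMA3A, at 2.36 in ESC and 2.07 in NPC. EFNB2 was the lowest member in NPC, at -2.19, where 5.89% of genes lay below it, and UNC5B the lowest in ESC, at -2.11. In ESC EFNB2 was at -1.43, with 21.0% of genes below it. DCC went from 1.16 to -0.12.

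**Figure D5:**
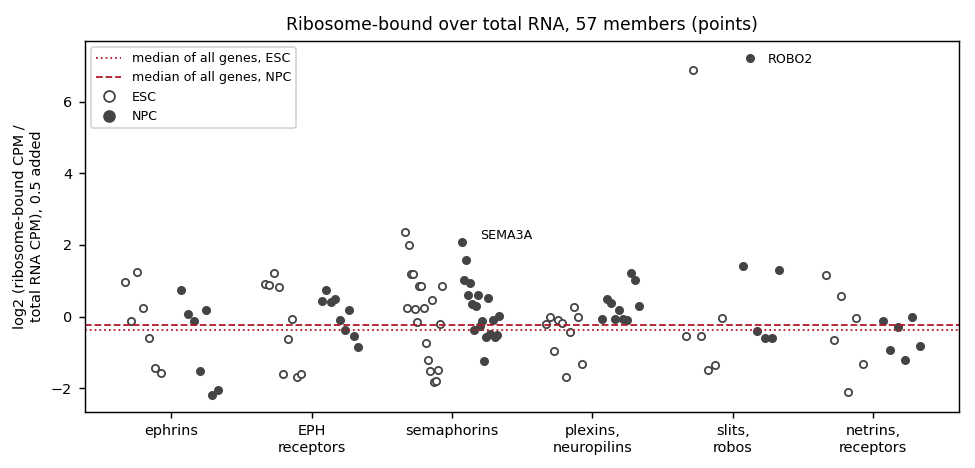
Log2 ratio of mean ribosome-bound to mean total RNA CPM, with 0.5 added to each (y axis), for 57 members by family (x axis) in ESC (open) and NPC (filled), with lines at the medians of all genes. ROBO2 stands near 7 in both states, and the other members lie between about -2 and 2.4.

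A pair of further lists gave the other genes of guidance. Other cues and co-receptors, 30 genes, rose in 14 and fell in 10 of 29 tested in RNA, which is 82.8% called beside 52.6% of all genes. In RIBO 11 rose and 4 fell of 22, which is 68.2% beside 61.8%, and in efficiency 1 was higher and 2 lower, which is 13.6% beside 41.9%. BOC, a co-receptor of Sonic hedgehog that guides commissural axons, had the largest rise, from 7.67 to 11.5 CPM in ESC RNA to 268 to 288 CPM in NPC (27.8-fold, log2 4.8 ± 0.17, adjusted p = 5.67e-07). Its RIBO level rose from 3.51 to 12.3 CPM to 178 to 189 CPM (25.3-fold, log2 4.66 ± 0.35, adjusted p = 1.07e-06). CXCL12, a chemokine that guides migrating cells, fell most in RNA, from 75.6 to 88.2 CPM to 2.76 to 3.23 CPM (27.8-fold, log2 -4.8 ± 0.14, adjusted p = 2.89e-07). CNTN1, a contactin of the axon surface, fell most in RIBO, with 135 counts in the ESC libraries and 3 in NPC, a ratio of 54.1 (exact 95% interval 18.1 to 265, counting error only).

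Cytoplasmic effectors, 51 genes that carry the signal to the cytoskeleton, differed between the assays. In RNA 8 of 50 rose and 15 fell, 46.0% called beside 52.6% of all genes, with a median of -0.08. In RIBO 30 of 47 rose and 8 fell, 80.9% called beside 61.8%, with a median of 1.27. Their efficiency was higher in 28 and lower in 3 of 47, which is 66.0% beside 41.9% of all genes, with a median of 1.31. RIBO_ESC 2 read low for some effectors, such as DPYSL2 (310 CPM beside 747 and 663 in the other ESC libraries). It read high for others, such as CDC42 (179 CPM beside 116 and 114). The counts of this list without that library were not examined. RRAS, a small GTPase that plexins act on, had the largest RNA rise of the list, from 2.40 to 3.75 CPM to 11.7 to 13.4 CPM (log2 2.05 ± 0.19, adjusted p = 6.88e-05). TIAM1, which activates the GTPase Rac, had the largest RIBO rise, from 11.9 to 27.3 CPM to 219 to 241 CPM (log2 3.49 ± 0.28, adjusted p = 1.71e-06). VAV3, a guanine nucleotide exchange factor, fell most in RNA, from 17.1 to 26.1 CPM to 1.68 to 2.37 CPM (log2 -3.25 ± 0.24, adjusted p = 2.00e-05), and in RIBO (-2.92 ± 0.47, adjusted p = 2.40e-04).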

How the data were processed

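The authors deposited whole-number read counts per gene symbol, with no normalization, in a table with 1 column per library. Builds hg38 and GRCh38 appear in the submitters' processing notes beside featureCounts 1.6.4, STAR 2.7.1a, Bowtie 1.2 and cutadapt 1.18. The role of each, the annotation, strand use, the treatment of reads with several matches and the isolation of ribosomes were not given in the sources used here. Members with an antisense or overlapping gene are therefore uncertain.

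Members, lists and tests were chosen with earlier results of these data known. NPC was compared with ESC for each assay with edgeR 4.0.16 (R 4.3.3), using TMM scaling, filterByExpr and the quasi-likelihood F test, with Benjamini-Hochberg adjustment over all genes tested and a threshold of 0.05. Efficiency, which is relative to each library's total, was the interaction of assay and state over the 12 libraries, for genes past the filter in both assays. CPM values use TMM factors, and a standard error is the log2 fold change divided by the square root of F. The genes described in full were, per family, the largest rise and fall called in each assay, every member called in efficiency and every member called in opposite directions, and, for the further lists, the largest rise and fall in each assay. SEMA3C and SEMA3A were added for their place on chromosome 7, without values for each library. SEMA3A had no promoter window.

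Same-numbered RNA libraries deviated together across genes (r of 0.185, 0.143 and 0.382), so the RNA fit was repeated with the replicate number as a block. Differently numbered RNA pairs ran from -0.343 to 0.217, the highest being RNA_ESC 2 with RNA_NPC 1. Only number 3 lay above all of these, so whether the numbers mark pairs is not known. Alternatives were DESeq2 1.42.0, limma 3.58.1 (voom), RLE scaling, other filters, a single fit and leaving out each library. No 2 libraries of a group agreed within counting noise. The scripts were tested on simulated data. Gene spans and promoter windows came from RefSeq tables of GRCh38.p14. Tables and figures used matplotlib 3.10.9, scipy 1.17.1, numpy 2.4.6 and pandas 2.3.3 (Python 3.11.15).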

Additional observations from a re-analysis of the deposited data

Results flagged for a closer look

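A pair of members passed the threshold in opposite directions in total and in ribosome-bound RNA. They were picked by those calls, so the interaction of assay and state, fitted to the same libraries, is not separate evidence. For ROBO1 the log2 fold changes were -0.39 in RNA and 1.59 in RIBO, and the interaction was 1.93 (edgeR adjusted p = 7.87e-06). For PLXNA4 they were -0.63 and 1.10, and the interaction was 1.68 (edgeR adjusted p = 0.00313). The RNA calls of both genes, and the RIBO call of PLXNA4, were lost when certain single libraries were left out.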

How the results depend on the processing

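The counts of members called were within 1.5 times the reported ones under DESeq2, RLE scaling, limma-voom, both other filters, a single fit over 12 libraries and the replicate block. A minimum change of 2-fold left 10 members lower in RNA, 9 with higher and 3 with lower efficiency. Leaving out 1 library gave 31 to 41 members higher and 11 to 21 lower in RNA, 31 to 39 and 8 to 10 in RIBO, and 11 to 19 and 4 to 7 in efficiency. In every one of those fits 42 of 53 RNA calls, 38 of 43 RIBO calls and 15 of 21 efficiency calls held. No called result changed sign under any of these settings, while 17 results that were not called did so in 45 values (-0.21 to 0.45). With the replicate block, the counts were 39 higher and 17 lower in RNA, 33 and 8 in RIBO and 14 and 5 in efficiency. In RIBO the same-numbered libraries did not deviate together (r of -0.179, -0.255 and -0.008), and whether the numbers mark pairs there is not known. With the block, PLXNA4 (adjusted p = 0.0522) and SEMA4B (0.0678) were not called in RIBO. Whether RNA and RIBO libraries of the same number deviate together was not examined. In efficiency the block lost SEMA6C (adjusted p = 0.0521) and SEMA7A (0.0528). In a single fit over 12 libraries the RNA falls of ROBO1 (adjusted p = 0.0531) and ROBO2 (0.134) were not called. Efficiency calls were also lost with limma-voom for DCC (adjusted p = 0.09), SEMA6C (0.0737), SLIT2 (0.0715), SEMA7A (0.0848) and PLXNB2 (0.05), with RLE scaling for SEMA6C (0.0516), SLIT2 (0.0622) and PLXNB2 (0.0597), and with no filter for SLIT2 (0.0706) and SEMA7A (0.0539). The cause was not tested. RIBO libraries were shallower, and 57 members passed the filter there beside 68 in RNA.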
